A study of Mus musculus with 27 samples.

Results

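The subject of this account is the difference between PDGFRα cardiac fibroblasts and whole heart in C57Bl/6 mice at 1 year of age, gene by gene. It rests on all 5 libraries labelled 1 year, 2 of sorted fibroblasts (replicates 4 and 5) and 3 of whole heart (replicates 1 to 3), out of 27 in the series, and every gene present in both count tables was eligible. After a filter on low counts, 17332 of 22855 genes were tested. The study sampled fibroblasts and hearts at 5 ages, from postnatal day 1 up to 1.5 years, to ask how the fibroblast program changes as mice grow old. The fibroblasts came from hearts that were digested with enzymes and sorted by flow cytometry for the surface receptor PDGFRα. The whole heart RNA was taken from tissue. By the paper's methods, the cells were isolated from ventricles with atria and valves removed. No such trimming is stated for the tissue RNA, so region and cell type cannot be told apart in this contrast. All 5 libraries were made from polyadenylated RNA, and no allele, injury or agent was named for any of these animals. The sort keeps every digested cell that carries PDGFRα, and the number of hearts behind a library is not in the labels.

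Cardiac fibroblasts build and maintain the extracellular matrix that surrounds heart muscle cells. They secrete collagen as a precursor that is hydroxylated, folded with chaperones, trimmed outside the cell and cross-linked, and they send and receive growth factor signals. Whole heart RNA is dominated by muscle cells, which carry the contractile apparatus and many mitochondria, and it also holds RNA of endothelial cells, pericytes, macrophages and the fibroblasts themselves. A difference between sorted cells and tissue therefore compares a purified cell type with a mixture that contains it, and in such bulk samples fewer cells of a type and less RNA per cell cannot be told apart.

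The labels held against their markers for fibroblasts and for muscle. Pdgfra, the receptor used for the sort, stood at 1139 and 1088 CPM (read counts scaled to a common library size and corrected for composition) in fibroblasts and at 39.3, 36.0 and 32.9 CPM in hearts. Myh6, the main myosin heavy chain of the mouse heart, stood at 3.51 and 9.93 CPM in fibroblasts and at 18247, 17585 and 24796 CPM in hearts. The 29 sarcomere genes summed to 400 and 406 CPM in the fibroblast libraries against 103083 to 109861 CPM in the hearts. Tpm1, Pdlim5 and Cryab, which other cells also use, made up 321 and 311 CPM of the fibroblast sums, and the other 26 genes summed to 79.04 and 95.03 CPM against 90257 to 93687 CPM. Endothelial markers were present in the sorted cells: the 18 genes summed to 1358 and 1564 CPM in fibroblasts and to 1456 to 1654 CPM in hearts, a fibroblast mean of 94.1% of the heart mean. Eng and Tek, both higher in fibroblasts, carried 765 and 726 CPM of the fibroblast sums, and without them the fibroblast mean was 56.0% of the heart mean (593 and 838 CPM against 1176 to 1419 CPM). These genes were set aside after their values were seen. Total counts ran from 52917602 to 76758831 per library. The log levels of the 2 fibroblast libraries correlated at r = 0.988 over genes, those of the hearts at 0.978 to 0.979, and those across tissues at 0.826 to 0.834. Heart replicate 3 stood apart from replicates 1 and 2 in genes of the atrium, in Myh7 and in its higher counts of long transcripts (rank correlation of the difference with exon length 0.30 over genes). Without it, 3349 genes were higher in fibroblasts and 3199 in hearts. The labels do not say whether replicates are separate animals. The paper states 3 animals per age and 3 fibroblast sets taken from different hearts, whereas 2 fibroblast libraries are labelled 1 year. It also states that the sequenced hearts were those that gave the fibroblasts, and the labels do not link the libraries of 1 heart. The p-values rest on the spread between libraries of a group, estimated from all 27 libraries and not from those of 1 year alone. With only the samples of 1 year fitted, 4440 genes were higher in fibroblasts and 4186 in hearts, against 3545 and 3394 with all 27.

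At 1 year, 6939 of 17332 genes (40.0%) differed between fibroblasts and whole heart in edgeR's quasi-likelihood test at an adjusted p under 0.05. Of these, 3545 genes (20.5%) were higher in fibroblasts and 3394 (19.6%) in whole heart. At least 2-fold differences made up 2884 and 2899 of these calls. The large differences lay more often on the heart side: 524 genes were over 64-fold higher in hearts and 174 in fibroblasts by the fitted values. A further measure of this asymmetry was that 59 genes with at least 10 CPM in hearts had no read in either fibroblast library, while 0 genes had the reverse pattern. The 5 libraries did not overlap between tissues for 69.1% of all genes tested. The balance of calls depended on scaling: with library size alone, 4567 genes were higher in fibroblasts and 2621 in hearts, since the median log2 difference of all genes moved from -0.09 to 0.28. No call changed direction under any setting tried.

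**Figure D1:**
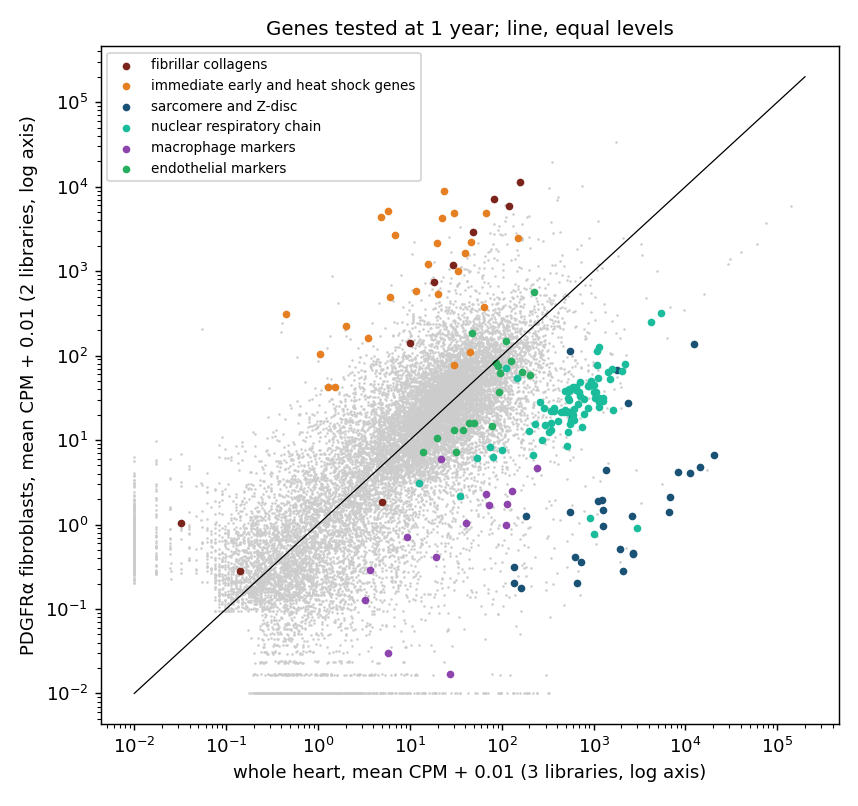
Mean CPM plus 0.01 of each tested gene in whole heart (x axis, 3 libraries, log scale) against PDGFRα fibroblasts (y axis, 2 libraries, log scale), with members of named gene lists in color and a line at equal levels. Matrix and immediate early genes lie above the line, and the 29 sarcomere genes lie far below it.

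By share of reads, the fibroblast libraries were led by Gsn, the actin-severing protein gelsolin (3.46%, against 0.139% in hearts), C3 (2.03%), Col3a1 (1.18%) and Lrp1, an endocytic receptor (1.08%). Dcn, Bgn, Egr1 and Hspg2 followed at 0.785% to 1.05%. The hearts were led by 6 mitochondrial genes, from mt-Co1 (11.2%) to mt-Nd4 (2.29%), followed by Myh6 (1.63%) and Mb, myoglobin (1.37%). The genes were read in 37 lists by role, each given with the count of its members that passed and with its median log2 difference, which over all genes was -0.09. The plot of list members orders these lists from the most fibroblast-sided to the most heart-sided.

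**Figure D2:**
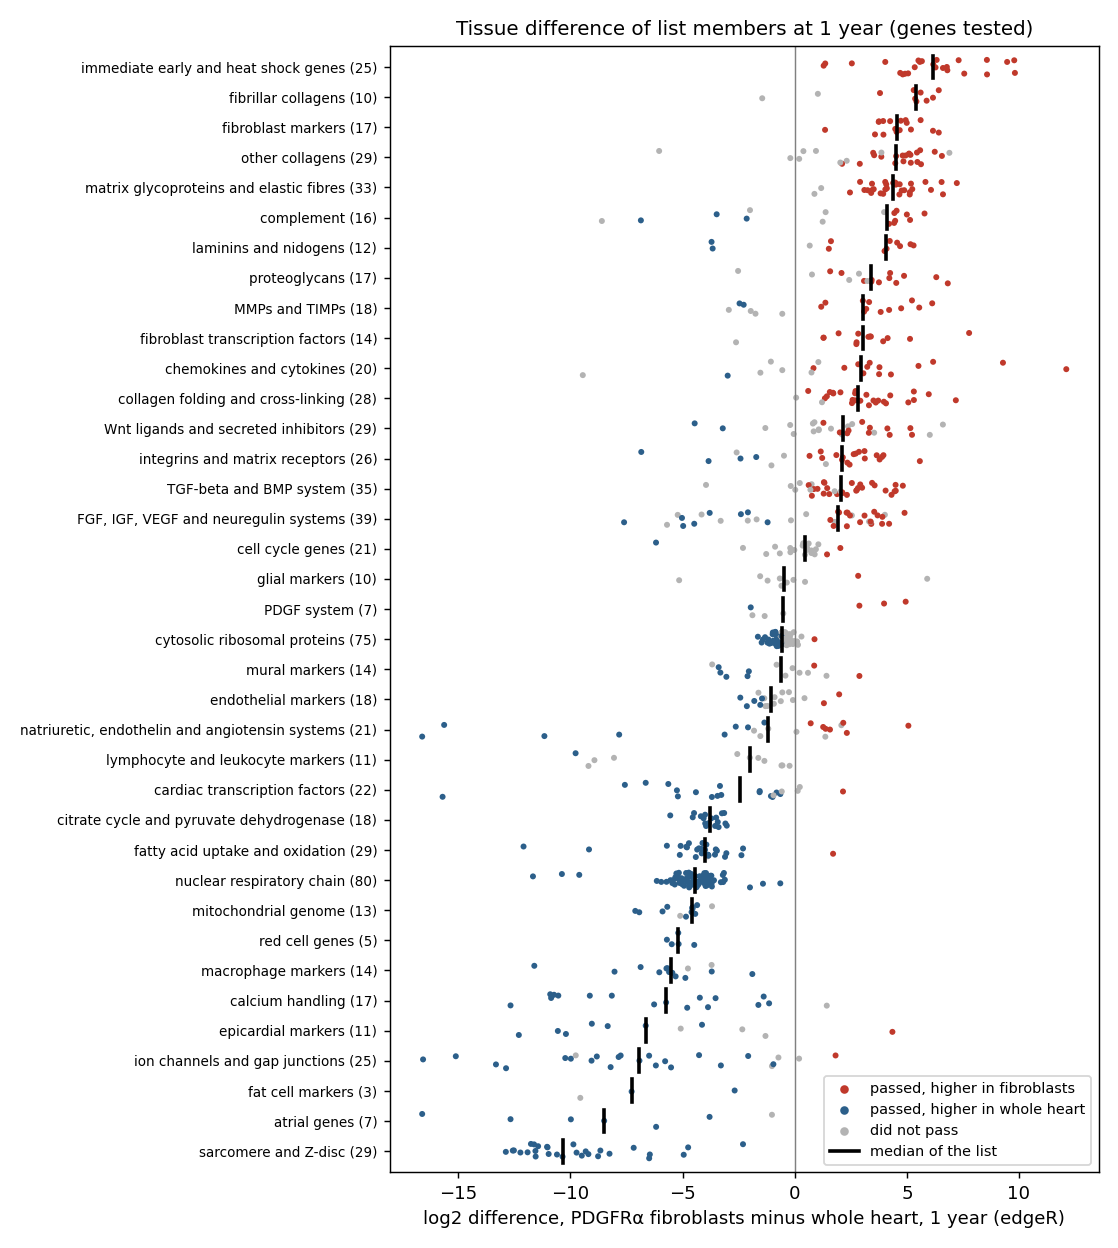
Log2 difference (fibroblasts minus whole heart, 1 year) of every tested member of each list, 1 point a gene, with a bar at the list median and the number tested in brackets. Immediate early genes (median 6.18) and fibrillar collagens (5.40) sit at one end and the sarcomere genes (-10.35) at the other, while endothelial markers straddle 0.

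All 17 fibroblast markers were higher in the sorted cells, with a median log2 difference of 4.54. Col1a1, a chain of type I collagen, stood at 8387 and 5913 CPM in fibroblasts and at 90.7, 82.0 and 77.0 CPM in hearts (log2 difference 6.42, SE 0.26, adjusted p = 2.5e-14 by edgeR). Dcn, the collagen-binding proteoglycan decorin, stood at 10047 and 10180 CPM against 869, 849 and 526 CPM, with heart replicate 3 the lowest. The sorted cells exceeded every heart for each of the 17 markers. The smallest difference was that of Thy1, a surface glycoprotein often used to gate fibroblasts, at 46.5 and 31.2 CPM against 18.1, 13.5 and 14.0 CPM (1.35, SE 0.24). The largest was that of Col1a1. The list took 5.90% and 4.92% of all counts in the fibroblast libraries and 0.129% to 0.161% in the hearts.

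Transcription factors of mesenchymal cells followed the same direction, with 13 of 14 passing higher in fibroblasts (median 3.06). Tcf21, which is needed for cardiac fibroblasts to form, stood at 192 and 198 CPM in fibroblasts and at 19.9, 8.70 and 9.42 CPM in hearts (3.94, SE 0.32). Meox1 (3.29), Snai1 (4.14) and Nfatc4 (2.83) were also higher. Prrx1 and Foxs1 differed less, by 1.29 and 1.28. Scx, known for tendons, was the exception, at 0.787 and 1.03 CPM in fibroblasts against 3.13 to 7.11 CPM in hearts (adjusted p = 0.16 by edgeR). Its fibroblast values lay below all 3 hearts.

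Collagens took part of the matrix signal: the fibrillar chains summed to 34490 and 24537 CPM in the fibroblasts and the other collagens to 24890 and 20194 CPM, beside 47090 and 39411 CPM for matrix glycoproteins and 35618 and 31903 CPM for proteoglycans. Of 10 fibrillar collagen chains tested (11 analysed), 8 were higher in fibroblasts (median 5.40), and their summed level was 61.96 times the heart's. Col3a1, the chain of type III collagen, reached 13821 and 9103 CPM in fibroblasts against 168, 175 and 136 CPM in hearts (6.17, SE 0.31). In the fibroblast libraries Col1a1, Col3a1 and Col1a2 (6691 and 5166 CPM) were each higher in replicate 4 than in replicate 5. Col5a1 (5.88), Col5a2 (5.31) and Col5a3 (5.37), which set fibril diameter, rose alongside them. Col11a2 and Col24a1 did not pass, and Col2a1 of cartilage was too low to test. Of 29 other collagens tested (31 analysed), 20 were higher in fibroblasts and 0 in hearts (median 4.52). Col6a3, a chain of the beaded filament collagen VI, stood at 2875 and 2189 CPM against 23.8, 31.0 and 25.4 CPM (6.56, SE 0.36). The basement membrane chains Col4a1 and Col4a2 were 4.48 and 3.86 higher, with Col4a1 at 4836 and 4070 CPM against 181 to 231 CPM. The 9 chains that did not pass included Col23a1 (2.90 and 5.17 CPM against 3.42 to 6.74 CPM) and other chains of low count. Endothelial cells also make collagen IV, laminins and perlecan, and the part of the endothelial RNA given above in these values was not tested.

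The machinery that turns procollagen into fibers was higher as well: 26 of 28 members passed in fibroblasts (median 2.82). Hydroxylases that act in the endoplasmic reticulum differed by 1.43 to 2.71 for P4ha1 (2.69), P4hb (1.71), Plod1 (1.57), Plod2 (1.43) and Plod3 (2.71). Serpinh1, the collagen chaperone HSP47, stood at 2025 and 1684 CPM in fibroblasts against 210, 209 and 187 CPM in hearts (3.20, SE 0.20). Outside the cell, Adamts2, which removes the amino-terminal propeptide, was 5.32 higher, and the enhancer of the other cleavage, Pcolce, was 4.26 higher. Among the lysyl oxidases that cross-link the fibers, Lox (5.98), Loxl1 (5.31), Loxl2 (5.07) and Loxl3 (4.07) passed. Loxl1 stood at 2449 and 1899 CPM against 59.7, 63.2 and 41.2 CPM. P4ha2, at 41.5 and 45.6 CPM against 35.7 to 53.1 CPM, and Adamts3 did not pass.

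Proteoglycans, glycoproteins and elastic fiber proteins showed the same direction, with 12 of 17 (18 analysed; median 3.42) and 31 of 33 (median 4.39) members passing in fibroblasts. Bgn, biglycan, stood at 10445 and 8728 CPM against 383, 341 and 255 CPM. Vcan, the large proteoglycan versican, differed by 6.83 (1009 and 814 CPM against 5.71, 10.1 and 8.32 CPM). Prg4, lubricin, differed by 6.31. These 3 genes did not overlap between tissues. Fbn1, the fibrillin of microfibrils, was at 3828 and 2825 CPM against 34.9 to 35.8 CPM (6.55, SE 0.28). Thbs1, thrombospondin 1, an activator of latent TGF-beta, differed by 7.23 (1418 and 1746 CPM against 8.63, 5.91 and 17.1 CPM). Tnc (6.61) and Postn (5.13) are matricellular proteins known from injured hearts. Postn stood at 2141 and 981 CPM in fibroblasts and at 39.1 to 52.2 CPM in hearts, so the sorted libraries differed from each other by more than the hearts did. Fn1 (1397 and 704 CPM) and Tnc (169 and 76.4 CPM) showed the same order of replicates. Wisp1 and Spp1, osteopontin, were low in all 5 libraries and did not pass.

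Basement membrane laminins split by chain. Of 12 laminin and nidogen genes tested (13 analysed), 9 were higher in fibroblasts (median 4.05) and 2 in hearts, beside 20.5% and 19.6% of all genes. Lamc1, the shared gamma chain, stood at 5049 and 4558 CPM against 134, 122 and 145 CPM (5.16, SE 0.22). Lama2 (4.70), Lama4 (4.10) and Lamb1 (4.57) were also higher. Lama5 went the other way, at 18.7 and 19.0 CPM in fibroblasts against 191, 210 and 338 CPM in hearts (-3.71, SE 0.51). Lamb3 was likewise higher in hearts (-3.66, SE 1.07); its gene span overlaps those of G0s2 and Hsd11b1, and the strand setting of the counts is not given in the sources used here.

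Matrix-degrading enzymes and their inhibitors were mostly on the fibroblast side, with 12 of 18 tested (21 analysed; median 3.07) higher there. Mmp2, gelatinase A, stood at 3371 and 2267 CPM against 68.8 to 79.5 CPM (5.23), and Mmp14, the membrane enzyme that activates it, at 954 and 731 CPM against 15.5 to 20.7 CPM (5.55). Mmp15 was higher in hearts (-2.46, SE 0.41). The inhibitors divided: Timp1 (6.13), Timp2 (3.83) and Timp3 (1.37) were higher in fibroblasts and Timp4 in hearts, at 2.62 and 9.06 CPM against 26.8 to 30.4 CPM (-2.27, SE 0.84). Timp3 and Timp4 lie inside the spans of Syn3 and Syn2 on the opposite strand in GENCODE M21, with the same limit on strand.

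Of 26 integrins and matrix receptors, 18 were higher in fibroblasts and 4 in hearts (median 2.13), beside 20.5% and 19.6% of all genes tested. Ddr2, a collagen-binding receptor kinase, was 3.96 higher, and the collagen-binding integrin subunit Itga11 was 5.58 higher (200 and 147 CPM against 2.81 to 4.23 CPM). Itgb1, the beta subunit shared by most of these receptors, differed by only 1.16. Itga7, the laminin-binding subunit of muscle, was higher in hearts, at 171 to 193 CPM against 13.9 and 11.1 CPM in fibroblasts (-3.84, SE 0.25). Itga3 (-1.72), Itga4 (-2.42) and Itgb6 (-6.84) were the other members on the heart side. Itga4 was low (0.749 and 0.400 CPM against 2.19 to 4.50 CPM, adjusted p = 0.046 by edgeR) and did not pass without fibroblast replicate 4 (-2.93) or 5 (-2.03), or without heart replicate 2 (-2.52) or 3 (-2.04).

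Complement genes, of innate defense, summed to 29081 and 33998 CPM in fibroblasts and to 810 to 1033 CPM in hearts. Of 16 genes, 8 were higher in fibroblasts and 3 in hearts (median 4.09), beside 20.5% and 19.6% of all genes tested. The part on the heart side was thus close to that of all genes. C3, the central component of the cascade, took 2.03% of the fibroblasts' counts and stood at 17261 and 21779 CPM against 300.0, 430 and 329 CPM in hearts (5.79, SE 0.39). The classical pathway proteases C1ra (4.44) and C1s1 (4.48), C4b (5.00) and the regulator Serping1 (4.54) were higher in fibroblasts as well. Those higher in hearts were Cfp, properdin (-2.14), and the receptors C3ar1 (-6.86) and C5ar1 (-3.48), which leukocytes carry. C3ar1 stood at 9.89, 13.2 and 16.6 CPM in hearts and at 0.0129 and 0.214 CPM in fibroblasts.

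Of 20 chemokine and cytokine genes, 13 were higher in fibroblasts and 1 in hearts (median 2.95). Cxcl1, a neutrophil attractant, stood at 789 and 956 CPM in fibroblasts and at 1.75, 1.32 and 1.12 CPM in hearts (9.29, SE 0.89). Il6, a cytokine of the acute response, stood at 187 and 223 CPM in fibroblasts, while the hearts held at most 3 reads each (0.0221 to 0.0658 CPM); it passed at adjusted p = 5.4e-09 by edgeR. For both genes every fibroblast value lay far above every heart value. Only the fibroblasts had been digested and sorted, so handling and cell type cannot be told apart for the genes of this list. Cxcl14 (3.76), Ccl2 (4.29), Ccl7 (5.52), Csf1 (3.06) and Il33 (2.83) were also higher. Cxcl12, the ligand of CXCR4, differed by less, at 214 and 263 CPM against 132 to 134 CPM (0.84, SE 0.23). Il15 was higher in hearts, at 37.8 to 57.0 CPM against 6.47 and 5.67 CPM (-2.99, SE 0.46).

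Of 7 genes of the PDGF system, 3 were higher in fibroblasts and 1 in hearts (median -0.51), beside 20.5% and 19.6% of all genes tested. The receptors Pdgfra (4.95, SE 0.23) and Pdgfrb (2.88, SE 0.21) and the receptor-like Pdgfrl (3.98, SE 0.35) were higher in fibroblasts. The ligand Pdgfa was higher in hearts, at 39.58, 24.96 and 32.02 CPM against 9.32 and 7.22 CPM (-1.96, SE 0.30). Pdgfb, Pdgfc and Pdgfd were lower in both fibroblast libraries than in every heart without passing (adjusted p of 0.25, 0.40 and 0.61 by edgeR). Pdgfb, an endothelial ligand, was at 7.54 and 18.7 CPM against 28.5 to 37.7 CPM.

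Of 35 members of the TGF-beta and BMP system tested (38 analysed), 27 were higher in fibroblasts and 0 in hearts (median 2.05). The ligands Tgfb1 (1.45), Tgfb2 (2.74) and Tgfb3 (3.45), the receptors Tgfbr1 (2.13), Tgfbr2 (3.01) and Tgfbr3 (2.92), and the signal transducer Smad3 (2.77) all passed. Tgfbr2 stood at 581 and 526 CPM against 74.1, 77.3 and 55.3 CPM. The extracellular antagonists Fst (4.46), Chrd (3.56) and Fstl3 (2.82) were higher too. Acvr1b, Acvr2a, Acvr2b, Smad6 and Smad9 were among the members that did not pass. The latent TGF-beta binding protein Ltbp4 stood at 6948 and 6946 CPM against 393, 412 and 403 CPM (4.11).

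Of 39 FGF, IGF, VEGF and neuregulin genes tested (40 analysed), 18 were higher in fibroblasts and 8 in hearts (median 1.93). Over all genes tested the shares were 20.5% and 19.6%, so the part of this list on the heart side was close to that of all genes. On the fibroblast side stood the receptors Fgfr1 (3.90), Egfr (4.90), Axl (4.21) and Igf1r (2.46), with the ligand Igf1 at 314 and 329 CPM against 21.3 to 31.0 CPM (3.55, SE 0.35). The insulin-like growth factor binding proteins Igfbp4 (3.69) and Igfbp7 (3.91) were abundant there. On the heart side stood the angiogenic ligand Vegfa, at 292, 356 and 493 CPM against 73.6 and 70.8 CPM (-2.40, SE 0.27), and Vegfb (-3.79). Vegfc and Vegfd, which act on lymphatic vessels, had the opposite sign (2.31 and 2.36). Fgf1 (-4.48), Fgf13 (-5.03), Fgf16 (-2.09), Igf2 (-1.21) and the neuregulin receptors Erbb3 (-7.61) and Erbb4 (-4.97) were also higher in hearts. Fgf16 did not pass without fibroblast replicate 4 (-2.33) or 5 (-1.87) or heart replicate 2 (-1.83), and Erbb4 without any 1 of the 5 libraries (-6.64 to -4.22).

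Of 29 Wnt ligands, receptors and secreted inhibitors tested (30 analysed), 11 were higher in fibroblasts and 2 in hearts (median 2.15). Over all genes tested the shares were 20.5% and 19.6%. Sfrp1 stood at 899 and 818 CPM against 18.83, 29.79 and 19.97 CPM (5.23, SE 0.24). Frzb (5.16), Dkk3 (3.35) and Sfrp2 (4.24) are further inhibitors, and Fzd1 (4.13), Fzd2 (3.31) and Fzd7 (3.01) are receptors. Sfrp5 (-4.46, SE 1.63) and Fzd6 (-3.21, SE 1.02) were higher in hearts.

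The vasoactive peptide systems were divided between the tissues, with 7 of 21 tested genes (23 analysed) higher in fibroblasts and 8 in hearts (median -1.18). All genes tested were also divided, with 20.5% higher in fibroblasts and 19.6% in hearts. Ace, which makes angiotensin II, stood at 2801 and 2669 CPM in fibroblasts against 86.9, 83.5 and 74.2 CPM in hearts (5.07, SE 0.21). Its fibroblast values thus exceeded every heart value by a wide margin. Agtr1a, the receptor for that peptide, was higher in hearts, at 36.8, 37.8 and 43.3 CPM against 4.94 and 4.07 CPM (-3.12, SE 0.48). The natriuretic peptides Nppa and Nppb had no read in either fibroblast library. Nppb stood at 72.3, 98.6 and 113 CPM in hearts, which was at least 2214.5-fold higher than the level that 3 counts per library would give. Corin, the protease that activates the Nppa peptide, was 7.83 lower in fibroblasts on the log2 scale, and the clearance receptor Npr3 was 2.63 lower. Npr2, a receptor for C-type peptide, was higher in fibroblasts (1.27, SE 0.20). The endothelin receptors Ednra (-1.35) and Ednrb (-2.08) were higher in hearts.

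Immediate early genes and heat shock genes, which cells switch on within minutes of a stimulus, were the list with the highest median: all 25 passed higher in fibroblasts (6.18), and they took 4.86% and 5.25% of the fibroblasts' counts against 0.0479% to 0.0546% of the hearts'. Fos, a subunit of the transcription factor AP-1, stood at 5208 and 5217 CPM in fibroblasts and at 6.02, 6.08 and 5.20 CPM in hearts (9.82, SE 0.99, adjusted p = 2.3e-08 by edgeR). Fosb (9.79), Egr2 (9.47), Egr1 (8.57), Socs3 (8.58) and Junb (7.56) were also among the 12 largest rises of abundant genes. That group of 12 further held Il6 and Cxcl1, the aggrecanase Adamts4 (9.25), the hyaluronan synthase Has1 (8.94), the prostaglandin synthase Ptgs2 (366 and 482 CPM against 0.917 to 2.35 CPM) and Cilp (7.65), a matrix protein of cartilage and heart. Egr1 alone took 0.928% of the fibroblasts' counts. The 2 fibroblast libraries were close to each other for most of these genes and differed for heat shock genes: Hspa1b stood at 46.6 and 400 CPM, Hspa1a at 31.6 and 175 CPM and Hsph1 at 34.7 and 120 CPM. Hsph1 in replicate 4 was thus close to the hearts (28.7 to 32.1 CPM), without replicate 5 its difference was 0.21 and did not pass, and reads of the near-identical pair Hspa1a and Hspa1b cannot be assigned with certainty. The sorted cells had gone through digestion and sorting and the hearts had not. Handling and cell type cannot be told apart for this list, for Il6, Cxcl1, Adamts4, Has1 and Ptgs2, or elsewhere in this contrast.

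The upstream windows of Fos and Il6 are shown because these genes were abundant in the sorted cells and near 0 in hearts. Each is the 250 bases before the start in the RefSeq window of build GRCm38.p6, 5′ to 3′ on the gene's strand: Fos at chr12:85473640-85473889 (+) and Il6 at chr5:30012864-30013113 (+). Capitals mark a TATA box (TATAAA, searched on the gene's strand) in Fos and an AP-1 site (TGACTCA, searched on both strands) in Il6.
Fos: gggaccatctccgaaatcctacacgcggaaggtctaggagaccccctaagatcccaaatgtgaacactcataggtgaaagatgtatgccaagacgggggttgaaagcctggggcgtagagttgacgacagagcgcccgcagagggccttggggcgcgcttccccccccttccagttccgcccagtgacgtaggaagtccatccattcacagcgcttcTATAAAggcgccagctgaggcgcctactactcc
Il6: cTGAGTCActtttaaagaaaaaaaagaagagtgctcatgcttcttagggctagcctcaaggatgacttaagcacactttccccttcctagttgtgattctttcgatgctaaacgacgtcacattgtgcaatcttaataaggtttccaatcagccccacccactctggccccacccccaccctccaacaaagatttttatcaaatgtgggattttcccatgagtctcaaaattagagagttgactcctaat
Of 15 genes of the immediate early list with a window, 1 (Fos) held TATAAA, 0 held TGACTCA and 9 held CCAAT on either strand. Over the 9543 tested genes with a window, the shares were 4.11%, 3.02% and 37.0%. Of 13 chemokine and cytokine windows, 6 (46.2%) held TATAAA and 2 (15.4%, Cxcl10 and Il6) held TGACTCA. A match describes the letters in a window and is not a binding site.

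**Figure D3:**
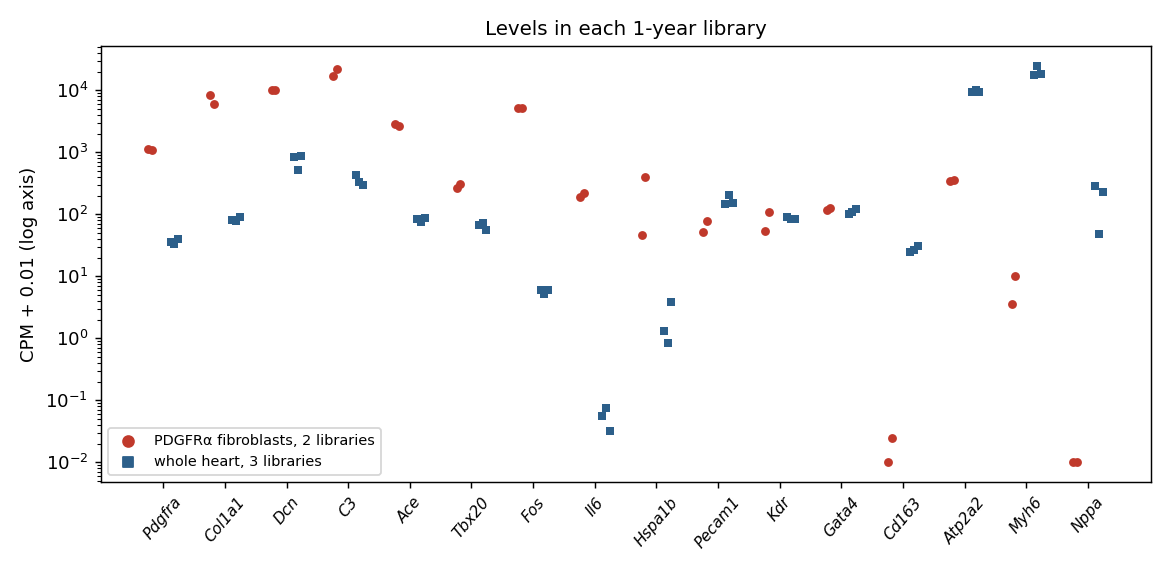
CPM plus 0.01 (log axis) of 16 genes in each 1-year library, with circles for the 2 fibroblast libraries and squares for the 3 hearts. Pdgfra through Hspa1b lie higher in fibroblasts, Kdr and Gata4 overlap, and Cd163, Atp2a2, Myh6 and Nppa lie higher in hearts.

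The depleted genes were led by heart muscle. All 29 sarcomere and Z-disc genes were higher in hearts (median log2 difference -10.35). Myl2, a ventricular light chain, stood at 3.01 and 6.62 CPM in fibroblasts against 16762, 15530 and 10928 CPM in hearts (-11.55, SE 0.71). Ttn, the giant spring protein titin, stood at 0.336 and 0.542 CPM against 2149, 2357 and 3515 CPM. Mybpc3, myosin-binding protein C, had the lowest adjusted p of the list (-11.02, SE 0.37, adjusted p = 3.8e-15 by edgeR). A few members kept a measurable level in the sorted cells: Tpm1, a tropomyosin that many cells use, at 139 and 134 CPM (-6.49), Pdlim5 at 120 and 104 CPM (-2.31) and the chaperone Cryab at 61.0 and 73.8 CPM (-4.75). Fibroblast replicate 5 had the higher trace of Myh6, Myl2 and Actc1; the last, cardiac actin, stood at 1.92 and 6.45 CPM.

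The 12 largest falls of abundant genes were all genes with no read in either fibroblast library, so each fold is a lower bound set against 3 counts per library. Trim54, a ring finger protein of the sarcomere, stood at 362, 298 and 325 CPM in hearts, at least 7667.4-fold higher. Smpx (at least 7544.0-fold) and Itgb1bp2 (at least 5607.2-fold) are muscle proteins of the cell's attachment sites, and Trim63 (at least 4622.3-fold) is the ubiquitin ligase MuRF1. The others included Art1, Apobec2, Nppa, Kcnj11, Ppp1r3a, Kcng2 and Lrrc10, at least 3393.5 to 5702.0-fold higher in hearts. Ppp1r3a targets a phosphatase to glycogen.

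The upstream windows of Myoz2, which encodes a calcineurin-binding Z-disc protein, and Xirp2, which encodes an actin-binding protein of cell junctions, are shown as examples of fallen muscle genes. Myoz2 stood at 0.787 and 2.20 CPM in fibroblasts against 1406, 1301 and 1075 CPM in hearts, and Xirp2 at 0.916 and 1.84 CPM against 530, 584 and 561 CPM. The windows are chr3:123034988-123035237 (-) and chr2:67445752-67446001 (+) of GRCm38.p6 in RefSeq, 5′ to 3′ on the gene's strand, with capitals for a MEF2 site in both and an AP-1 site in Xirp2.
Myoz2: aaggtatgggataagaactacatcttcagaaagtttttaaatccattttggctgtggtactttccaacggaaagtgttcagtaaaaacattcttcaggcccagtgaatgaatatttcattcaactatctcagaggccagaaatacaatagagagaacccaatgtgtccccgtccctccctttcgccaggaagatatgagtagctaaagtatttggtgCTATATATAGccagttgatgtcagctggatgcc
Xirp2: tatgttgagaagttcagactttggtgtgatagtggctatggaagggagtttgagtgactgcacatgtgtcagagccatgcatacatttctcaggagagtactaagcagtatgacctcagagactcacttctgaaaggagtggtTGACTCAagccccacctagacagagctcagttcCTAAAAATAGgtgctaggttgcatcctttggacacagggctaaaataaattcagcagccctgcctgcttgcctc
A MEF2 site stood in 5 of 17 sarcomere windows (29.4%; Mybpc3, Myoz2, Synpo2l, Ttn and Xirp2), in 1.87% of the windows of all tested genes, in 2 of 15 windows of the immediate early list (13.3%; Jun and Nr4a2), which was higher in fibroblasts, and in 0 of 57 windows of respiratory chain genes. A CArG box stood in 1 (5.88%; Ldb3) against 1.09%. Both strands were searched for the MEF2 site and the CArG box.

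Most calcium handling and electrical genes were higher in hearts. Of 17 calcium handling genes, 16 were higher in hearts (median -5.73). Atp2a2, the sarcoplasmic calcium pump SERCA2, kept 339 and 356 CPM in fibroblasts against 9489.6, 9273 and 10096 CPM in hearts (-4.79, SE 0.23). Its muscle-specific regulator Pln fell further, to 1.25 and 4.78 CPM against 5659.5, 6009.9 and 5073 CPM (-10.86). Ryr2, the calcium release channel, had no read in fibroblast replicate 4 and 1.14 CPM in replicate 5 against 986 to 1237 CPM. Of 25 ion channels and gap junction genes, 20 were higher in hearts and 1 in fibroblasts; the median was -6.92 as fitted and -6.19 with genes that had no read set at their bound. Gja1, connexin 43, stood at 131 and 168 CPM against 274 to 306 CPM (-0.95, SE 0.36).

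Atrial genes varied among the hearts, and 6 of 7 tested (8 analysed) were higher there than in fibroblasts (median -8.50 as fitted and -8.16 with genes that had no read at their bound). Nppa stood at 227, 285 and 48.4 CPM, Myl7 at 48.3, 78.1 and 10.5 CPM, and Sln, sarcolipin, at 15.2, 21.5 and 0.0219 CPM in replicates 1, 2 and 3. Heart replicate 3 was thus the lowest for these genes, and it was the highest for Myh7, the slow myosin heavy chain (337 CPM against 81.7 and 71.8 CPM). Each of these genes was below every heart in the fibroblasts, with no read of Nppa or Sln there. The paper states removal of the atria only for the cell isolation, so region and cell type cannot be told apart for these genes.

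Cardiac transcription factors were not lost as a block. Of 22 tested (23 analysed), 17 were higher in hearts and 1 in fibroblasts (median -2.42). Nkx2-5 had no read in fibroblasts and stood at 113, 100.4 and 83.7 CPM in hearts, at least 2316.8-fold higher. Tbx20 went the other way, at 265 and 306 CPM in fibroblasts against 55.6, 66.1 and 70.9 CPM in hearts (2.15, SE 0.31, adjusted p = 3.9e-06 by edgeR). Gata4, at 117 and 125 CPM against 122, 99.4 and 109.9 CPM, overlapped between the tissues (0.13, SE 0.20, adjusted p = 0.67). Gata6, at 84.3 and 75.6 CPM against 79.9, 60.4 and 64.6 CPM, also overlapped (0.23, adjusted p = 0.29). Hand2 (-1.56), Mef2a (-0.99), Mef2c (-1.06) and Tbx5 (-3.27) were higher in hearts, as were the regulators of mitochondrial genes Ppargc1a (-6.64), Esrra (-3.69) and Ppara (-3.44).

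Genes of oxidative metabolism were higher in hearts almost without exception. All 80 nuclear genes of the respiratory chain passed in that direction (median -4.47), from Cox6a1 (-0.64) to its muscle counterpart Cox6a2 (-11.67). Atp5b, the catalytic subunit of ATP synthase, stood at 333 and 310.1 CPM in fibroblasts against 5830.0, 5655 and 4789.7 CPM in hearts (-4.08, SE 0.20). All 18 citrate cycle and pyruvate dehydrogenase genes were higher in hearts (median -3.77), with Idh2 the farthest (-5.55). Of 29 genes of fatty acid uptake and oxidation, 27 were higher in hearts and 1 in fibroblasts (median -3.995). Fabp3, the fatty acid carrier of muscle, stood at 0.207 and 0.828 CPM against 2459, 2442 and 1829.8 CPM. Cpt1a, the form of the gatekeeping acyltransferase that liver and many other cells use, was higher in fibroblasts, at 160.0 and 151 CPM against 37.5, 50.8 and 54.3 CPM (1.71, SE 0.20). Lpl, lipoprotein lipase, kept 1030.4 and 964 CPM in fibroblasts against 4590.2 to 5408 CPM (-2.30).

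Of 13 genes of the mitochondrial genome, 11 passed and were higher in hearts (median -4.60). The genome took 33.0%, 33.2% and 29.2% of the heart counts and 1.74% and 1.78% of the fibroblast counts. mt-Co1 alone took 11.2% of heart counts. mt-Co2, mt-Co3, mt-Atp6, mt-Atp8, mt-Nd3 and mt-Nd4l held at most 6.44 CPM in any of the 5 libraries while mt-Cytb stood at 64056 to 84063 CPM in hearts, and their values are uncertain.

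Pairs of genes that serve one function in muscle and elsewhere were compared as log2 ratios within each library. These depend on how libraries are scaled only through the small value added to each gene, which matters for genes near 0. In 29 of 30 pairs the muscle gene was relatively lower in both fibroblast libraries than in every heart (median difference of log2 ratios -8.14 with 0.05 CPM added to each gene, and -7.81 with 0.5 CPM). In 5 pairs the muscle gene had 3 reads or fewer in a fibroblast library, so that the added value sets the ratio. An exact two-sided permutation test of 2 against 3 libraries cannot go below p = 0.1, the value of each of these 29 pairs. In 15 pairs the muscle gene was higher in hearts and its partner higher in fibroblasts. The largest shift was in the oxygen-binding globins: the ratio of Mb, myoglobin, to Cygb, cytoglobin, was -8.42 ± 1.11 in fibroblasts (mean ± SD, n = 2) and 6.96 ± 0.05 in hearts (n = 3), with Cygb at 1400.4 CPM in fibroblasts and 139 CPM in hearts. The creatine kinases Ckm and Ckb shifted by -12.30, with Ckb at 169.6 against 60.3 CPM. Of the ribosomal protein pair, Rpl3l had no read in fibroblast replicate 4 and stood at 0.514 CPM in replicate 5 against 331 to 446 CPM in hearts, while Rpl3 was at 224 against 121 CPM; it is 1 of those 5 pairs. For the actins Actc1 and Actb the shift was -12.65, for the elongation factors Eef1a2 and Eef1a1 -7.20, and for the glucose transporters Slc2a4 and Slc2a1 -8.31. In 9 pairs, among them the lactate dehydrogenases Ldhb and Ldha (-3.73), both genes were higher in hearts.

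**Figure D4:**
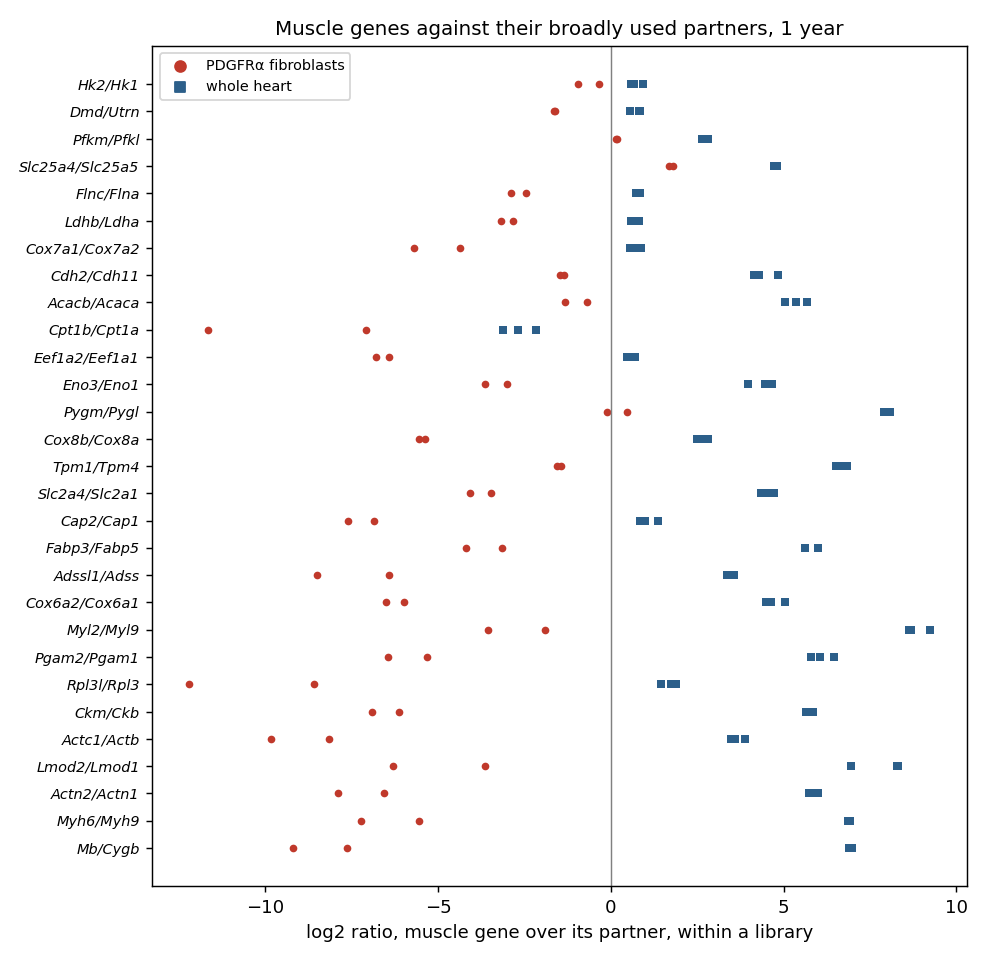
Log2 ratio of the muscle gene to its partner within each library for 29 of the 30 pairs (circles, fibroblasts; squares, hearts; pseudocount 0.05 CPM). The circles lie to the left of the squares in all 29 pairs drawn; the pair that is not drawn is the 1 pair of 30 in which they did not.

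Markers of other cell types behaved differently from each other. Of 18 endothelial markers, 2 were higher in fibroblasts and 5 in hearts (median -1.07), and 11 did not pass. Over all genes tested, 40.0% passed, 20.5% higher in fibroblasts and 19.6% in hearts. Pecam1 stood at 51.5 and 77.2 CPM in fibroblasts against 149.6, 144 and 201 CPM in hearts (-1.35, adjusted p = 0.059 by edgeR). Kdr, the VEGF receptor, overlapped between the tissues, at 54.2 and 109 CPM against 82.7, 91.8 and 84.8 CPM. Cdh5, VE-cadherin, was at 58.8 and 113 CPM against 118 to 138 CPM. Replicate 5 was the higher fibroblast library for Pecam1, Kdr and Cdh5 alike. The 5 calls toward hearts were fragile: without fibroblast replicate 4 there were 0, without any other single library 1 or 2, and with library size alone 1. The 2 calls toward fibroblasts were Tek (201 and 171 CPM against 40.7 to 50.8 CPM, 1.98) and Eng (565 and 555 CPM against 194 to 256 CPM, 1.30). The list took 0.137% and 0.166% of counts in fibroblasts and 0.112% to 0.142% in hearts, overlapping ranges.

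Macrophage markers were near 0 in the sorted cells: 12 of 14 were higher in hearts (median -5.53), and the list summed to 21.8 and 22.7 CPM in fibroblasts against 802 to 975 CPM in hearts. Cd163, a scavenger receptor of resident macrophages, had 0 and 1 read in fibroblasts and 31.3, 24.3 and 26.1 CPM in hearts. Csf1r stood at 2.35 and 2.24 CPM against 61.0 to 73.7 CPM (-4.88, SE 0.37). Red cell genes (5 of 5, median -5.19) were higher in hearts. Of 11 lymphocyte and leukocyte markers (median -2.002), 1 passed, Cd4, which had no read in fibroblasts and was at 1.28 to 2.17 CPM in hearts. Of 3 fat cell markers (median -7.27 as fitted, -5.04 at the bound) 2 passed in hearts, Fabp4 and Cidea. Of 14 mural markers, 5 were higher in hearts and 2 in fibroblasts (median -0.61), beside 19.6% and 20.5% of all genes tested. The pericyte genes Rgs5 (-3.05), Kcnj8 (-3.39) and Abcc9 (-2.10) were lower in the sorted cells, while Pdgfrb, shared by fibroblasts and pericytes, was 2.88 higher. Of 11 epicardial markers, 7 were higher in hearts and 1 in fibroblasts (median -6.64 as fitted, -5.68 at the bound). Aldh1a2, the retinoic acid synthase of epicardium, stood at 256 and 172 CPM in fibroblasts against 10.1, 14.1 and 7.13 CPM (4.36, SE 0.40). Msln and Upk3b, which define mesothelium, had 0 reads and at most 0.439 CPM there. Of 10 glial markers (median -0.47), 1 passed in fibroblasts, Cdh19 (43.5 and 38.3 CPM against 2.17 to 7.96 CPM, 2.83), while Sox10 was at 0.684 and 0.343 CPM.

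Of 21 cell division genes tested (22 analysed; median 0.46), 18 did not pass. The replication helicase subunits Mcm4 (2.04) and Mcm6 (1.44), 2 genes, were higher in fibroblasts, and 1 gene, Cenpf (-6.18), in hearts. Over all genes tested, 40.0% passed, 20.5% higher in fibroblasts and 19.6% in hearts. Mki67, the marker of cycling cells, stood at 2.67 and 1.23 CPM against 4.27, 2.86 and 7.001 CPM and did not pass (adjusted p = 0.14 by edgeR). Of 75 cytosolic ribosomal protein genes tested (76 analysed), 36 were higher in hearts and 1, Rpl3, in fibroblasts (median -0.56), with Rplp0 at 711 and 651 CPM against 652 to 915 CPM. With library size alone as the scaling, 12 were higher in hearts and 3 in fibroblasts (median -0.17). These transcripts are short. Over all genes the difference rose with exon length: the median was -0.77 in genes of up to 2405 exon bases and 0.51 in genes of 7602 or more (rank correlation 0.22 over 13242 genes, which are not independent replicates). The part of length in the ribosomal counts was not tested.

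Whether the tissue difference was particular to 1 year was tested against 14 weeks and against 1.5 years, in each case as the fibroblast-minus-heart difference at 1 year less that at the other age. Against 14 weeks, 411 genes (2.37%) changed, 299 (1.73%) toward fibroblasts and 112 (0.646%) toward hearts. The balance depended on scaling: with library size alone, 65 moved toward fibroblasts and 174 toward hearts as the median of all genes moved to -0.30. It also depended on 1 library, since without fibroblast replicate 4 the counts were 72 and 24. Of 48 named genes that passed, 37 did not pass under at least 1 of the alternatives tried. Few members of the matrix lists passed, toward fibroblasts: 1 of 10 fibrillar and 2 of 29 other collagens, 5 of 33 matrix glycoproteins, 1 of 18 MMPs and TIMPs, 0 of 17 proteoglycans (median -0.54) and 0 of 12 laminins and nidogens. Of the collagen folding list 6 of 28 passed: Serpinh1 (2.06, SE 0.28), P4ha1 (1.62), Loxl1 (1.60), Plod3 (1.15), Plod1 (0.94) and P4hb (0.83). Serpinh1 stood at 804 and 772 CPM in fibroblasts and 331 to 398 CPM in hearts at 14 weeks, against 2025 and 1684 CPM and 187 to 210.3 CPM at 1 year. Between these ages the fibroblast values were higher and the heart values lower. Col1a1 (1.29), Col4a1 (1.82), Col4a2 (1.81), Fbn1 (1.36), Mmp14 (1.78) and Thbs1 (2.87) also passed. Serpinh1, Thbs1, Col4a1 and Col4a2 passed with any 1 library of 1 year left out. Col1a1 did not pass without fibroblast replicate 4 (1.02) or without any 1 of the hearts (1.23 to 1.35), and Loxl1, Mmp14 and P4ha1 did not pass without fibroblast replicate 4 (1.41, 1.58 and 1.57). Of the immediate early list 5 of 25 passed (Egr2, Dnajb1, Jund, Dusp1 and Btg2), while Fos did not (1.24, adjusted p = 0.69 by edgeR). On the heart side 4 of 14 macrophage markers passed (Mrc1, Csf1r, Cd163 and Lyz2), and 12 of 75 ribosomal protein genes. Timp3 (-1.77) and Igf2 (-2.12) moved toward hearts. The endothelial list, with 0 of 18 passing, summed to 2476 and 2805 CPM in fibroblasts at 14 weeks and to 1358 and 1564 CPM at 1 year, and its part in these differences was not tested.

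**Figure D5:**
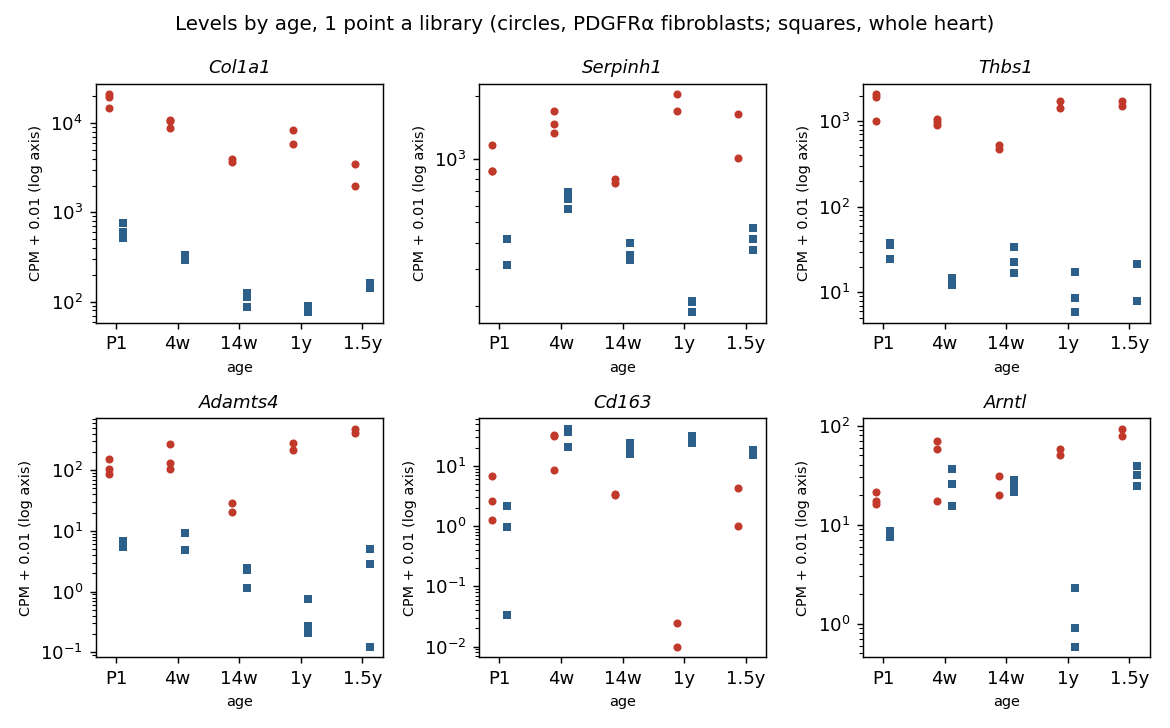
CPM plus 0.01 (log axis) of 6 genes by age in each library (circles, fibroblasts; squares, hearts; P1, postnatal day 1; w, weeks; y, years). At 1 year the tissues stand farther apart than at 14 weeks for Serpinh1 and Thbs1, Cd163 falls to at most 1 read in fibroblasts, and Arntl is lowest in the 1-year hearts.

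Against 1.5 years, 110 genes (0.635%) changed, 57 (0.329%) toward fibroblasts and 53 (0.306%) toward hearts. Without fibroblast replicate 4 the counts were 6 and 2, and of 29 named genes that passed, 28 did not pass under at least 1 alternative. Sex is not in the labels, and the 1.5-year libraries stood apart in sex-linked genes: Xist was at 40.3 to 381 CPM there and at 0.171 to 0.642 CPM at 1 year, and the Y-linked Ddx3y at 0.0406 to 0.458 CPM and at 63.4 to 109.9 CPM. Age and this split cannot be told apart in this comparison. Among fibrillar collagens, Col1a1 (2.24, SE 0.32), Col3a1 (2.33, SE 0.39) and Col1a2 (1.46, SE 0.32) passed, 3 of 10 genes tested, and the other matrix lists held 1 of 29 other collagens, 3 of 28 folding genes, 2 of 17 proteoglycans, 4 of 33 glycoproteins and 0 of 12 laminins and nidogens. Col3a1 stood at 4995 and 2513 CPM in fibroblasts and 209 to 294 CPM in hearts at 1.5 years. Its fibroblast values at 1 year, 13821 and 9103 CPM, were above both. Col1a1 passed with any 1 library of 1 year left out, and Col3a1 did not pass without fibroblast replicate 4 (1.99). Sparc (1.64), Fbn1 (1.86), Vcan (2.44), Prg4 (3.08), Tnc (3.28), Loxl1 (1.77), Serpinh1 (1.54), Mmp14 (1.91) and Ace (1.21) moved the same way. Timp3 (-1.96), Vegfa (-2.01) and the macrophage genes Csf1r, Mrc1 and Cd163 moved toward hearts. Pdgfra and Myh6 passed against neither age.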

How the data were processed

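RNA was sequenced as single-end reads, aligned by the authors with STAR 2.5.3a to mm10 and counted per gene with STAR's own counter, and the deposited values are raw counts; the annotation and the strand column used are not given in the sources used here. Here, both tables were joined by gene symbol (22855 genes, 21807 of them, 95.4%, with a position in GENCODE M21). Counts of all 27 libraries were fitted in edgeR 4.0.16 (R 4.3.3) with TMM scaling in 10 tissue-by-age groups, on genes passing filterByExpr in the 5 libraries of 1 year, without covariates. The contrast and its differences from 14 weeks and 1.5 years were tested by quasi-likelihood with Benjamini-Hochberg adjustment over 17332 genes and a threshold of 0.05. SE is on the log2 scale. The common biological coefficient of variation was 71.2%. Total counts ran from 52917602 to 76758831 in the 1-year libraries, where 3 counts equal 0.0387 to 0.0671 CPM (counting error only). On simulated counts of 16382 genes, 46% of 200 genes changed 4-fold were recovered in the contrast at 1 year. Only those 200 genes differed between tissues there, whereas 40.0% of genes passed in the data. The 46% is therefore no measure of the sensitivity of the reported contrast.

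Named genes were the 12 largest differences per direction (adjusted p under 0.05, no overlap, mean of at least 10 CPM, no model names), the 8 largest shares of counts, up to 6 abundant members of each list with every member against its list's direction, the genes of isoform pairs and the 5 largest differences between ages; other members are named by their role and were chosen after their values were seen. Some genes that this rule names are not reported here. The members and lists were chosen with earlier results of these data known. Alternatives were DESeq2 1.42.0, other scalings and filters, fewer samples, a replicate block and each replicate left out.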

Additional observations from a re-analysis of the deposited data

Results flagged for a closer look

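Tissue differences that changed with age by a test of the change itself are listed here with their values. Against 14 weeks the fibroblast-minus-heart difference rose, among the genes reported here, most in Pkdrej (8.72), Acsl6 (8.51), Scgb1c1 (8.04) and Adamts4 (5.58) and fell most in Retnla (-11.61), mt-Co2 (-9.79), Nppa (-9.46), Cd163 (-9.0) and Itgb1bp2 (-8.81). Pkdrej, Acsl6 and Scgb1c1 had no read in the fibroblasts of 14 weeks and at most 0.839 CPM at 1 year (Acsl6), and Retnla, Nppa and Itgb1bp2 had no read in the fibroblasts of 1 year, so these fitted values depend on the handling of zeros and are no bounds. mt-Co2 is among the mitochondrial genes of very low count whose values are called uncertain above. Adamts4, an aggrecanase, had counts throughout. It stood at 277 and 211 CPM in fibroblasts and 0.198 to 0.738 CPM in hearts at 1 year. At 14 weeks it stood at 20.4 and 29.2 CPM and at 1.12 to 2.42 CPM. Retnla stood at 12.3, 15.5 and 166 CPM in the 1-year hearts, replicate 3 being far above the others.

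Against 1.5 years the difference rose, among the genes reported here, most in Tuba8 (8.30), Arntl (4.01), Tmem144 (3.93) and Thbs4 (3.29) and fell most in Cd163 (-8.93), Mhrt (-8.81), Mmp16 (-7.55), Aldh1a3 (-6.88) and Klhl29 (-6.58). Thbs4, a matricellular thrombospondin, stood at 195 and 106 CPM in fibroblasts at 1 year and at 35.4 and 9.88 CPM at 1.5 years. Mmp16, Aldh1a3 and Klhl29 were at most 0.0210 CPM in the hearts of 1.5 years, and Tuba8 had no read in fibroblast replicate 5 of 1 year, and without replicate 4 its value was 1.25. Scgb1c1 rested on replicate 5 in the same way (0.94 without it, against 14 weeks). Mhrt is transcribed antisense to Myh7, and without a stated strand setting their reads cannot be told apart.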

How the results depend on the processing

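The tissue difference at 1 year had 0 calls reversed under every alternative, while its balance moved with scaling, from 45.8% of calls toward fibroblasts with DESeq2 to 63.5% with library size alone (51.1% as reported): 2860 to 4567 genes were higher in fibroblasts and 2503 to 4215 in hearts, and 5372 to 6828 of 6939 calls were kept. Among 285 named genes, 27 lost the call at 1 year under at least 1 alternative, as did 37 of 48 against 14 weeks and 28 of 29 against 1.5 years, most often at 1 year when a fibroblast library was left out, which leaves 1 sample assumed to vary like the other groups. Without fibroblast replicate 4 these included Lamb3 (-2.83), Timp4 (-1.64), Fzd6 (-2.99), Sfrp5 (-4.34), Mef2a (-0.91), Mef2c (-0.93), Fabp4 (-2.32), Gja1 (-0.78) and Plod2 (1.27). Without replicate 5 they included Cox6a1 (-0.55), Cxcl12 (0.69), Ednra (-1.13), Hsph1 (0.21), mt-Co3 (-3.64) and Erbb4 (-4.22). Without replicate 4, and likewise without replicate 5, they included Cd4, Cxcl10, Erbb4, Fgf16, Foxs1, Fzd6, Gja1, Itga4, Nr1d2, Pkdrej, Sfrp5, Slc2a1, Sln, mt-Atp6 and mt-Atp8. Rpl3 (0.88) lost it under the 2-fold minimum alone. Leaving out a heart took the call from up to 10 genes, among them Erbb4, Gja1 and Timp4. The log2 share ratio of the endothelial list was 0.29 and turned to -0.24 when the mitochondrial genome was left out of the totals. Calls toward hearts ranged over the alternatives from 0 to 9 in the endothelial list and from 12 to 46 in the ribosomal list.

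The differences between ages were less stable. Against 14 weeks (299 toward fibroblasts, 112 toward hearts) the counts were 606 and 342 with DESeq2, 65 and 174 with library size alone, 932 and 681 with only the samples of both ages, and 72 to 226 and 24 to 90 with 1 library left out. Tuba8 (5.56) ran from -1.48, a reversal, without fibroblast replicate 4 to 6.52 without replicate 5. Against 1.5 years (57 and 53) they were 337 and 441 with DESeq2, 31 and 35 with no filter on low counts, 3 and 7 with only the samples of both ages, and 6 to 37 and 2 to 45 with 1 library left out. The cause of these changes was not tested, beyond the smaller number of samples where libraries were dropped.

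By the paper, the sorted cells and the heart tissue came from the same hearts, so the samples may be paired by origin. The labels do not say which libraries share a heart, and the fibroblast numbers (4 and 5) and the heart numbers (1 to 3) do not meet. The contrast at 1 year was therefore tested without pairing. Between ages, the replicate block gave 73 and 47 calls against 14 weeks and 32 and 25 against 1.5 years. Same-numbered samples correlated at -0.04 to 0.01 and at -0.13 to 0.16. These are correlations of deviations from the group mean, which mirror each other in a group of 2 libraries. They cannot decide whether same-numbered samples share more than a number.

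Depth was high in all libraries, and 2 fibroblast samples limit the precision. Counts near 0 limit the folds of muscle genes in fibroblasts, and in 2-library groups 1 sample can decide a call.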

Other observations

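Some genes of the circadian clock, chosen after their values were seen, set the 1-year hearts apart from the hearts of other ages. Of 15 clock genes looked at, the 1-year hearts lay below every heart of the other ages for 2 (Arntl and Npas2), above every one for 4 (Dbp, Tef, Nr1d2 and Per3) and overlapped them for 9, Clock, Nr1d1 and Per1 among them. Arntl, the clock activator BMAL1, stood at 0.575 to 2.28 CPM in the 1-year hearts, against 21.1 to 28.5 CPM at 14 weeks and 24.5 to 39.1 CPM at 1.5 years. Dbp, a clock output gene in opposite phase, stood at 129 to 137 CPM in the 1-year hearts, 15.6 to 23.9 CPM at 14 weeks and 14.4 to 21.8 CPM at 1.5 years. In fibroblasts of 1 year Arntl was at 50.2 and 58.7 CPM and Dbp at 22.7 and 26.9 CPM. The fibroblasts of 14 weeks differed from these as well, with Arntl at 20.04 and 31.11 CPM and Dbp at 64.79 and 77.25 CPM. The tissue difference of both genes at 1 year (5.44 for Arntl and -2.43 for Dbp) differed from that at 14 weeks (by 5.37 and -4.20, both past the threshold). Npas2 (2.99) and Nfil3 (3.23) moved in the same direction as Arntl against 14 weeks. Both tissues changed for Nfil3. Its fibroblast values were 11.54 and 13.58 CPM at 14 weeks and 47.29 and 57.65 CPM at 1 year. Its heart values were 18.62 to 29.64 CPM and 6.628 to 15.98 CPM. Npas2 did not pass without fibroblast replicate 4 (3.03) or 5 (2.94). The hour of tissue collection is not in the labels, and its part in these values was not tested.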
